A study of Mus musculus with 6 samples.

Results

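The Smoc1/Angpt1-gated cells are stromal cells of the posterior mouse eye in which messages of Smoc1, Angpt1 or both were counted together with Dcn, the message of the matrix proteoglycan decorin. Cells were chosen by their counts of marker genes: after a depth filter (1000 or more UMIs from 500 or more genes, mitochondrial share up to 20%), a cell was taken when it carried 5 or more Dcn UMIs, 3 or more UMIs of Smoc1 and Angpt1 together with both detected or Pgf also detected, no Pecam1, at most 1 Myh11 UMI and at most 1 UMI of Wnt6, Wnt10a and Edn3 together. This gave 78 cells of 55353 barcodes that passed the depth filter and of 66434 barcodes in all. The gate was built on counts of these same cells, so the levels of its genes describe the choice and were not tested.

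The posterior cups came from mice given eye drops, and the right eyes were used. Mice of the tropicamide group received 6 applications of tropicamide, an antagonist of muscarinic acetylcholine receptors that relaxes the ciliary muscle, at intervals of 10 min, and the eyes were taken after a wait of 1 h. The saline group had drops of saline, likewise spaced, with the number of drops and the wait not stated, and is described by the submitters as the group with a contracted ciliary muscle. There were 12 mice in each group, and 4 eyes were combined in each sample, so that each group had 3 pools. The lens, cornea and iris with ciliary body were removed, which left sclera, choroid and retina. No genetic change, strain, age or sex is given in the labels. A pool of 4 eyes is the replicate throughout, and differences between animals within a pool were not observed.

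Stromal cells of the choroid and sclera make the collagen and proteoglycan matrix of the eye wall and send signals to vessels, nerves and pigment cells. Angpt1 encodes angiopoietin-1, a ligand that activates the endothelial receptor Tek and steadies vessels; Pgf encodes placental growth factor, a ligand of the receptor Flt1. Smoc1 encodes a secreted calcium-binding glycoprotein of basement membranes that modulates BMP signalling, and Serpine2 encodes an inhibitor of serine proteases such as thrombin. Edn3 encodes endothelin-3, a ligand of the receptor Ednrb, and Pi16 and Ebf2 mark fibroblasts of vessel adventitia and similar sheaths.

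The deposited matrices held 30761887 to 49477707 UMIs per pool. Rods made up most barcodes. Among the filtered barcodes, 351 barcode sequences occurred in more than 1 pool; 3 of the 78 gated barcodes were also seen in another pool, and none was a gated cell in both. A search with simulated doublets marked 5998 barcodes over the whole series and 10 of the gated cells, 6 of them in saline pool 2.

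The tropicamide pools held 16, 18 and 7 gated cells, and the saline pools held 9, 14 and 14. Summed over its cells, a pool gave 103552 to 226733 UMIs, and the median cell had 11147.5 UMIs, with pool medians from 7408 to 16398. Levels below are in CPM, for which the UMIs of a gene are divided by all UMIs summed over the cells of a pool and scaled to the same total in every pool. Within a bulk of so few cells, 1 cell with many UMIs of a gene can set the level of a pool, so the number of cells behind a value is given where it is small.

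The limit on Wnt6, Wnt10a and Edn3 removed most of the cells that met the rest of the gate. Of 4648 barcodes with 5 or more Dcn UMIs, 1130 had 3 or more UMIs of Smoc1 and Angpt1 together, 854 of these had both genes or Pgf, and 639 remained without Pecam1 and with at most 1 Myh11 UMI. The limit then took out 561 cells and left 78. Edn3 reached 2 or more UMIs in 554 of the 561 cells taken out, and 516 of the 561 had neither Wnt6 nor Wnt10a. The 561 cells taken out are called Edn3-high cells here and serve as the closest comparison. Near the thresholds, 16 gated cells had exactly 3 UMIs of Smoc1 and Angpt1 together and 24 cells just outside had exactly 2. Likewise, 39 gated cells had exactly 1 UMI of Wnt6, Wnt10a and Edn3 together and 30 cells just outside had exactly 2. Dcn lay between 5 and 9 UMIs in 7 gated cells, and another 7 cells met everything else with 1 to 4.

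The markers of the label were only in part present. Angpt1 was detected in 74 of the 78 gated cells, Serpine2 in 66, Smoc1 in 58 and Pgf in 46; the 20 cells without Smoc1 entered through Angpt1 and Pgf. Rods, which should lack these genes, held a UMI of Smoc1 in 0.802% of cells, of Angpt1 in 0.956%, of Pgf in 0.877% and of Serpine2 in 2.15%, at a median depth of 2642 UMIs. The gate fixed the detection of Smoc1, Angpt1 and Pgf in the gated cells, and the rods were shallower than the gated cells, so these shares are given as a description.

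**Figure D1:**
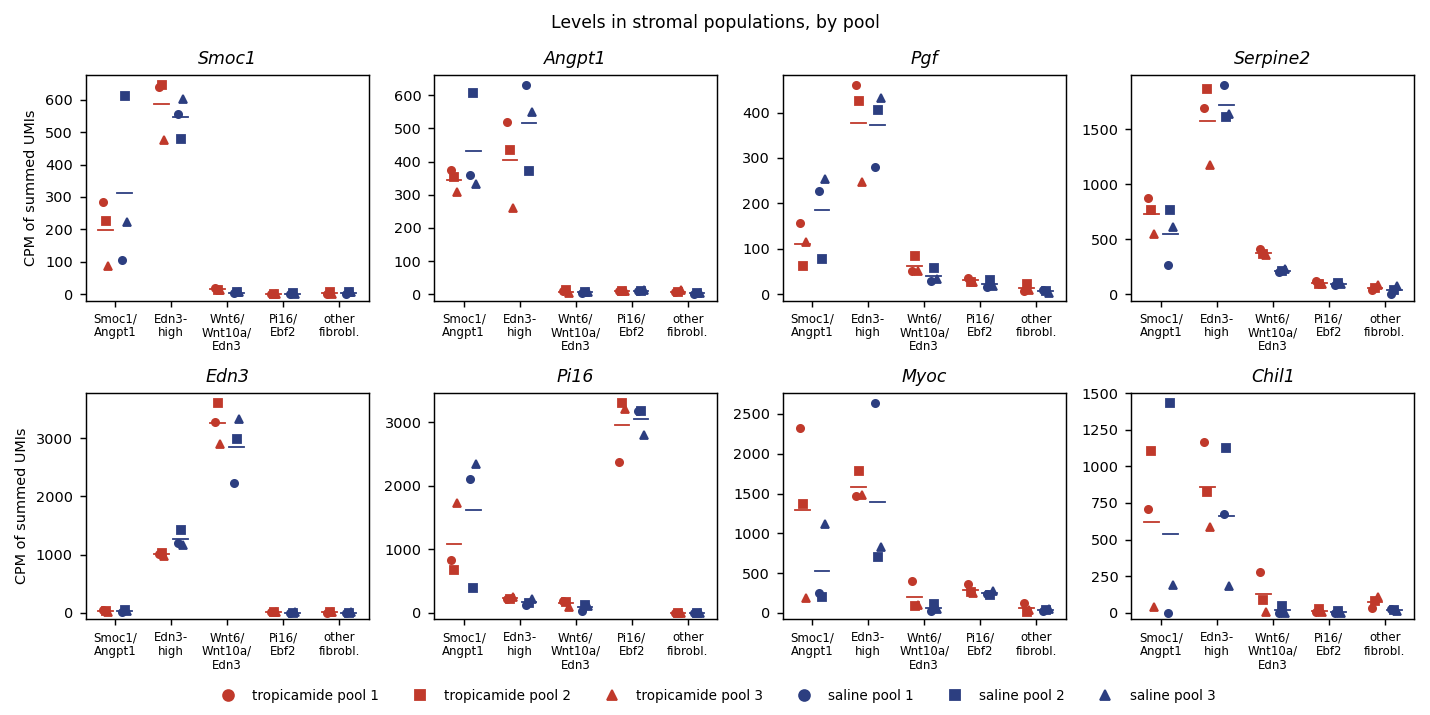
CPM of 8 genes (y axis, one panel per gene) in 5 stromal populations (x axis); each point is 1 pool, tropicamide left of saline, and short lines are group means of 3 pools. Pgf and Serpine2 were lower in Pi16/Ebf2 fibroblasts and other fibroblasts than in the gated and Edn3-high cells. So were Smoc1 and Angpt1, by the definitions of the populations. Pi16 was high in the gated cells as well as in Pi16/Ebf2 fibroblasts, which were chosen by it.

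Smoc1 stood at 284, 225 and 86.9 CPM in the tropicamide pools, against 105, 611 and 224 CPM in the saline pools. Saline pool 2 was the highest and tropicamide pool 3 the lowest, and the groups overlapped. Angpt1 was steadier, at 375, 353 and 309 CPM in the tropicamide pools, against 359, 605 and 333 CPM in the saline pools. Pgf had 157, 61.7 and 116 CPM in the tropicamide pools, against 228, 78.5 and 253 CPM in the saline pools, with overlap. Serpine2, which the gate did not use, had 871, 767 and 550 CPM in the tropicamide pools, against 263, 768 and 607 CPM in the saline pools. Over the 6 pools, Smoc1 averaged 256 CPM in the gated cells, against 566 CPM in the Edn3-high cells, and Serpine2 averaged 638 CPM against 1648 CPM. Angpt1 was closer between them, at 389 CPM in the gated cells and 461 CPM in the Edn3-high cells. In 541 cells gated on Wnt6, Wnt10a and Edn3, Smoc1 averaged 10.3 CPM and Angpt1 7.40 CPM. In 1543 Pi16/Ebf2 fibroblasts they averaged 1.90 and 10.7 CPM. Both populations, and the other fibroblasts described below, were defined with at most 1 UMI of Smoc1 and Angpt1 together. Their low levels of Smoc1 and Angpt1 were therefore set in advance and are not a result.

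The gated cells were a mixture of cells with many and with few UMIs of Pi16 and Ebf2. Pi16, a secreted peptidase inhibitor of adventitial fibroblasts, was detected in 39 of the 78 cells and Ebf2, a transcription factor, in 30, against 4.90% and 1.35% of rods. Among the 561 Edn3-high cells, Pi16 was detected in 270 and Ebf2 in 31, so detection of Pi16 was not particular to the gated cells. Its level differed, averaging 1347 CPM in the gated cells and 198 CPM in the Edn3-high cells. Pi16 and Ebf2 together reached 2 or more UMIs in 38 cells, and 40 cells had 0 or 1. This division was chosen after the counts were seen and is descriptive. It is not sharp. For example, 1 cell of saline pool 2 counted as positive had 4 UMIs of Pi16 and Ebf2, with 29 of Smoc1 and 29 of Angpt1. The 38 cells had a median of 0.5 Smoc1 and 4 Angpt1 UMIs, and 19 of them had no Smoc1. The 40 cells had a median of 3 Smoc1 and 3 Angpt1 UMIs, and 25 of them carried the single Edn3 UMI that the gate allows, against 6 of the 38. Depth also differed, with a median of 15709.5 UMIs in the 38 cells and 7634 in the 40.

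Over 8743 genes, the summed log2 profile of the 38 Pi16/Ebf2-positive cells had a Pearson correlation of 0.924 with that of Pi16/Ebf2 fibroblasts and 0.812 with that of the Edn3-high cells. The profile of the 40 Pi16/Ebf2-low cells had a correlation of 0.906 with the Edn3-high cells and 0.770 with the other 38. These correlations are across genes within shared libraries and describe likeness only. The 38 cells were also picked by the same genes that define the Pi16/Ebf2 fibroblasts. Genes high in the 38 cells and near 0 in the 40 cells, besides Pi16 and Ebf2 themselves, included complement C3 at 359 against 0 CPM and the surface antigen Ly6c1 at 537 against 2.97 CPM. The angiopoietin receptor Tek had 181 CPM in the 38 cells and 0 in the 40, and the alarmin Il33 had 200.1 and 0 CPM. In the other direction, the Wnt agonist Rspo2 had 0 CPM in the 38 cells and 279 CPM in the 40, the actin-binding Tagln 10.2 and 641 CPM, and smooth-muscle actin Acta2 18.6 and 398 CPM. Tagln and Acta2 stood at 115 and 53.4 CPM in the Edn3-high cells, and Rspo2 at 35.8 CPM. Among all gated cells, C3 was found in 25, Ly6c1 in 26, Rspo2 in 14, Tagln in 18 and Acta2 in 27.

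The mixture differed between pools. Pi16/Ebf2-positive cells made up 4 of 16, 11 of 18 and 4 of 7 gated cells in the tropicamide pools, and 8 of 9, 3 of 14 and 8 of 14 in the saline pools. As shares this was 25.0%, 61.1% and 57.1% in the tropicamide pools, against 88.9%, 21.4% and 57.1% in the saline pools, so the 2 extremes were both saline pools. The groups averaged 47.8% ± 19.8 for tropicamide and 55.8% ± 33.7 for saline (SD, n = 3 pools each; two-sided exact permutation test on the logit, p = 0.9). A comparison of treatment over all gated cells is therefore also a comparison of unlike mixtures, pool by pool.

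**Figure D2:**
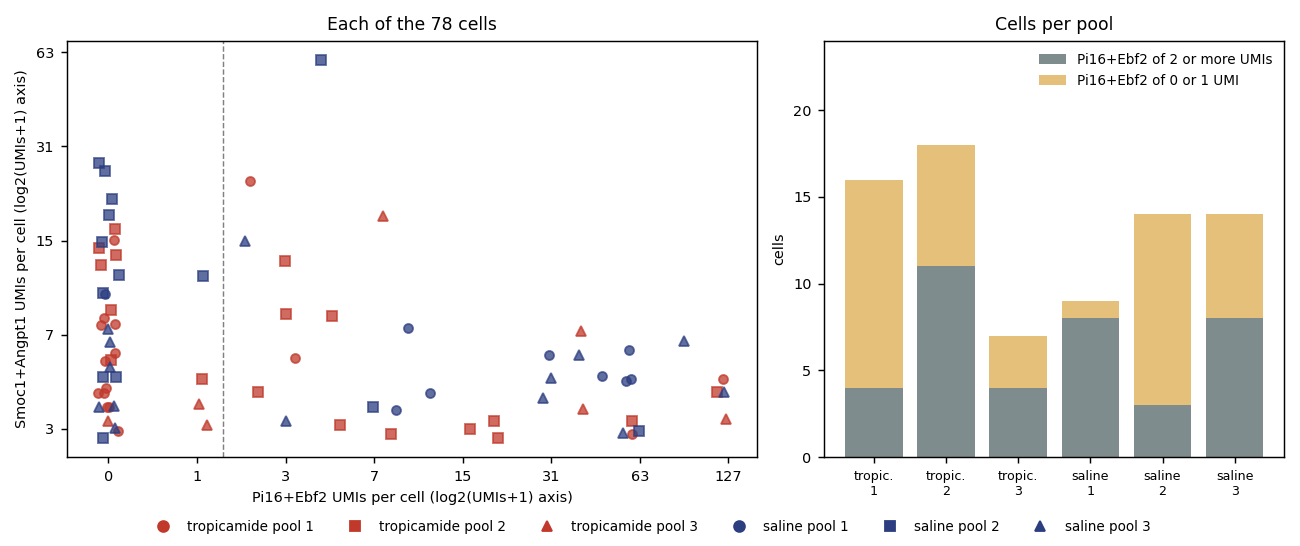
Left, each gated cell by its UMIs of Pi16 and Ebf2 together (x axis) and of Smoc1 and Angpt1 together (y axis), both on log2(UMIs+1) axes with a small random shift so that points do not overlap; the dashed line divides 0 or 1 from 2 or more. Right, cells per pool, split by that line: 38 cells lay to its right, and saline pool 1 had 8 of its 9 cells there.

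The gated cells were set beside 298 other fibroblasts, which lacked Pi16 and Ebf2. The summed level of 6 fibroblast markers was 25956 to 45348 CPM over the pools of the gated cells and 53973 to 80247 CPM in other fibroblasts; of these markers, Col3a1 was higher in the gated cells, averaging 6298 CPM against 1330 CPM. Kera, a proteoglycan of the corneal stroma, averaged 1.46 CPM in the gated cells, on 1 UMI in all, and 3066 CPM in other fibroblasts. It was detected in 189 of the 298 other fibroblasts, against 109 of 1543 Pi16/Ebf2 fibroblasts. The genes ranked against other fibroblasts below are thus ranked largely against Kera-positive cells. Angptl7, a secreted angiopoietin-like protein, averaged 169 CPM in the gated cells and 7976 CPM in other fibroblasts. In the gated cells Angptl7 stood at 442, 450 and 9.66 CPM in the tropicamide pools, against 0, 39.2 and 72.3 CPM in the saline pools. The protease inhibitor A2m and the growth factor-binding protein Igfbp2 were also among the 10 genes lowest against other fibroblasts. Igfbp2 in the gated cells rested on few cells, with 274 of its 516 UMIs in 1 cell of saline pool 2. The 24 genes highest against other fibroblasts by the within-pool ratio included Pi16, Ebf2, Angpt1 and Smoc1, whose place the definitions of the populations fixed. Others were higher still in Pi16/Ebf2 fibroblasts than in the gated cells: Ly6c1 averaged 362 CPM in the gated cells and 618 CPM in those fibroblasts, the elastic-fibre gene Eln 639.9 and 1073 CPM, the proprotein convertase Pcsk6 234 and 428 CPM, and the hyaluronan synthase Has1 355 and 835 CPM. The potassium channel Kcnt2 averaged 342 CPM in the gated cells, 89.5 CPM in Edn3-high cells and 157 CPM in Pi16/Ebf2 fibroblasts. That mean rested on saline pools 1 and 3, at 954 and 622 CPM, with 39.7 to 232 CPM in the others. Within pools, Kcnt2 was above Edn3-high cells in 4 of 6 pools and above Pi16/Ebf2 fibroblasts in 3 of 6. The retinoid- and steroid-metabolising enzyme Cyp1b1 averaged 139, 92.3 and 63.8 CPM. It was above each of these populations in 4 of 6 pools and highest in tropicamide pool 3, at 357 CPM.

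Mean levels of Col1a1, Col1a2 and Col3a1 lay between those of the Edn3-high cells and the Pi16/Ebf2 fibroblasts, while Lum and Dcn did not. Lum, which encodes lumican, averaged 1109.6 CPM in the gated cells, 908 CPM in Edn3-high cells and 795 CPM in Pi16/Ebf2 fibroblasts, and Dcn, which the gate used, 11807, 8394 and 11019 CPM. Col3a1 averaged 6298 CPM and Col1a1 5934 CPM in the gated cells. Summed over pools, Col3a1 had 5887 CPM in the gated cells, 678 CPM in Edn3-high cells and 11789 CPM in Pi16/Ebf2 fibroblasts, and Col1a1 had 5764, 1078 and 10334 CPM. Within the gated cells, Col3a1 had 8730 CPM in the Pi16/Ebf2-positive cells and 909 CPM in the Pi16/Ebf2-low cells. Mgp, an inhibitor of matrix calcification, showed the opposite order, with 1968 CPM in the positive and 5861 CPM in the low cells. Timp3, an inhibitor of metalloproteases bound to matrix, had 1408 CPM in the gated cells, 3237 CPM in the Edn3-high cells and 415 CPM in Pi16/Ebf2 fibroblasts.

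Transcription factors of periocular mesenchyme were counted in the gated cells. Foxc1, a forkhead factor of the anterior eye, had 133, 168 and 96.6 CPM in the tropicamide pools, against 78.8, 230 and 57.9 CPM in the saline pools. Nr2f2, an orphan nuclear receptor, had 218, 198 and 126 CPM in the tropicamide pools, against 70.01, 471 and 239 CPM in the saline pools. Both were highest in saline pool 2, which had the smallest share of Pi16/Ebf2-positive cells. They were lowest or next to lowest in saline pool 1, which had the largest. Among the other pools, tropicamide pool 1, with a share of 25.0%, had 133 CPM of Foxc1 and 218 CPM of Nr2f2. Tropicamide pool 2, with a share of 61.1%, had 168 and 198 CPM. The part of the mixture in these levels was not tested. Between the divisions, Foxc1 had 57.6 CPM in the positive and 279 CPM in the low cells, and Nr2f2 86.5 and 499 CPM.

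Some genes were carried by few cells. The variance of each gene's counts across the gated cells of a pool was compared with the Poisson variance for the depth of each cell, and the median ratio over 7808 genes with a mean of at least 0.2 UMIs per cell was 1.199. Malat1, a nuclear long noncoding RNA, had the highest ratio, 87.8, followed by the actin-severing Gsn at 84.8 and Col1a2 at 75.4. Myoc, a secreted glycoprotein best known from the trabecular meshwork, had a ratio of 54.0 and was found in 23 of the 78 cells, with 312 of its 932 UMIs in 1 cell; 1.45% of rods held a Myoc UMI. Chil1, a secreted chitinase-like protein, was found in 16 cells, with 252 of its 653 UMIs in 1 cell. The chemokine Cxcl13 was confined to 2 cells of tropicamide pool 2. By pool, Myoc had 2323, 1372 and 183 CPM in the tropicamide pools, against 245, 196 and 1121 CPM in the saline pools, with overlap. Gsn had 8764 CPM in the Pi16/Ebf2-positive cells and 1731 CPM in the low cells.

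Signals to and from vessels were asked of the gated cells because Angpt1 and Pgf are vessel ligands. Tek, the receptor of angiopoietin-1, averaged 125 CPM and was found in 23 cells. Markers of endothelium summed to 0 to 96.8 CPM in the tropicamide pools, against 35.0 to 94.0 CPM in the saline pools; Pecam1 was 0 by the gate, and Cldn5 and Plvap were 0 in 5 and 3 of the 6 pools. Kdr and Flt1, receptors of the VEGF family, were counted with 21 and 17 UMIs in all. Vegfa, a ligand of the same family, had 60.5, 106 and 183 CPM in the tropicamide pools, against 61.3, 28.02 and 57.9 CPM in the saline pools. Cxcl12, a chemokine that retains leukocytes and guides vessels, averaged 443 CPM, and Kitl, the ligand of the receptor Kit on pigment and mast cells, 213 CPM.

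The muscarinic receptors that tropicamide binds were barely counted in the gated cells. Chrm3 had 3 UMIs in 2 of the 78 cells, Chrm1 and Chrm2 had 1 UMI each, and Chrm4 and Chrm5 had none; a count of 0 over 926604 UMIs allows up to 3 counts. None of the 5 receptors passed the filter on low counts, so none was tested in these cells. In the Edn3-high cells Chrm3 averaged 47.2 CPM, at 20.7, 38.4 and 60.4 CPM in the tropicamide pools, against 32.8, 59.7 and 71.3 CPM in the saline pools. Of the 17 genes listed for muscarinic signalling, 7 were tested in the gated cells and none passed; the G protein subunit Gnai2 had a log2 fold change of 0.08 and the inositol trisphosphate receptor Itpr1 0.26.

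The share of gated cells among filtered barcodes did not separate the groups. It was 0.2005%, 0.154% and 0.0673% in the tropicamide pools, against 0.121%, 0.163% and 0.152% in the saline pools. Tropicamide pool 1 was the highest and tropicamide pool 3 the lowest. The means were 0.140% ± 0.0675 for tropicamide and 0.145% ± 0.0220 for saline (SD, n = 3 pools each; two-sided exact permutation test on the logit of the share, p = 0.9, and 0.9 after adjustment over 4 stromal populations). With 20 arrangements of 3 against 3 pools, 0.1 is the smallest p this test allows. The 95% Wilson interval of a single pool ran from 0.0326% to 0.139% in tropicamide pool 3 and from 0.123% to 0.325% in tropicamide pool 1; intervals cover counting error only.

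Among cells with 5 or more Dcn UMIs, the gated cells made up 1.57%, 1.42% and 1.02% in the tropicamide pools, against 2.01%, 3.48% and 1.68% in the saline pools. All 3 tropicamide pools lay below all 3 saline pools, with means of 1.34% ± 0.286 and 2.39% ± 0.958 (SD, n = 3 each; exact permutation p = 0.1, the smallest possible). The Dcn-positive cells themselves numbered 1016, 1265 and 686 in the tropicamide pools, against 447, 402 and 832 in the saline pools. The Edn3-high cells made up 2.20%, 1.39% and 0.625% of filtered barcodes in the tropicamide pools, against 0.429%, 0.700% and 0.704% in the saline pools (two-sided exact permutation p = 0.3).

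**Figure D3:**
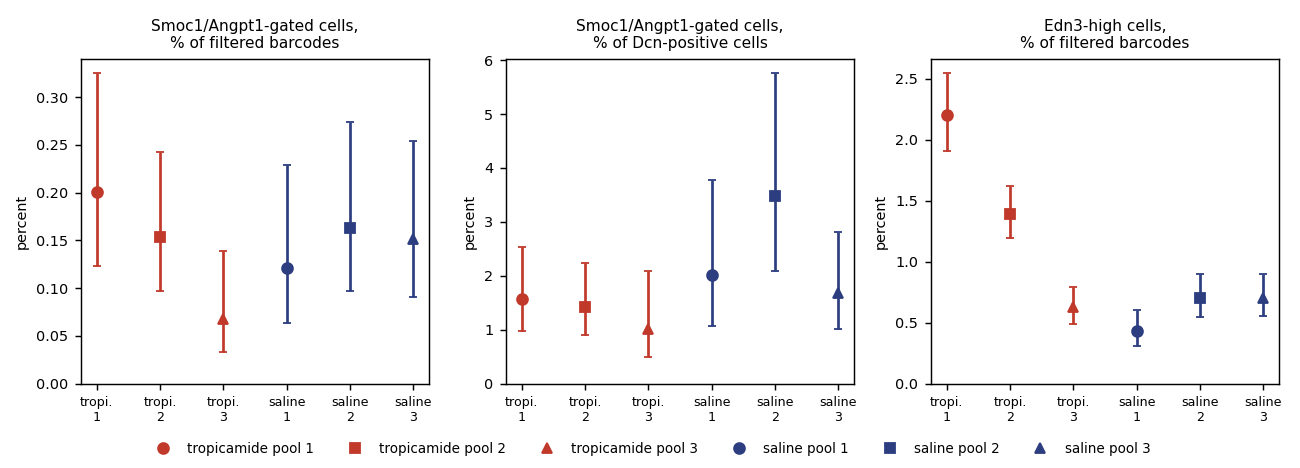
Share of cells in each pool (y axis, percent; tropicamide pools left of saline pools) for gated cells among filtered barcodes, gated cells among Dcn-positive cells and Edn3-high cells among filtered barcodes; bars are 95% Wilson intervals of counting error. The tropicamide pools span the saline pools in the first panel, at 0.0673% to 0.2005%, and lie below them in the second.

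No gene was called between tropicamide and saline in the gated cells. Of 33696 genes in the files, 3116 passed the filter on low counts, and edgeR's quasi-likelihood test with Benjamini-Hochberg adjustment called 0 of them, which is 0%; the smallest adjusted p was 0.982. An unadjusted p under 0.05 was given to 131 genes, or 4.2% of those tested, and the groups did not overlap for 311, or 9.98% (186 higher in tropicamide, 5.97%, and 125 lower, 4.01%). DESeq2 also called 0 genes, with 66 at an unadjusted p under 0.05. With so few cells per pool, the lack of calls does not show that levels were alike. In the 639 cells that met the gate without its limit on Wnt6, Wnt10a and Edn3, edgeR called 0 of 9433 genes, with a smallest adjusted p of 0.0793 and 733 genes (7.77%) at an unadjusted p under 0.05; DESeq2 called 51.

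The genes named below had the smallest unadjusted p among those averaging at least 50 CPM, and none passed the threshold. Tsc22d3, a leucine zipper protein induced by glucocorticoids, had 629, 635 and 367 CPM in the tropicamide pools, against 166, 241 and 188 CPM in the saline pools. The groups did not overlap, all tropicamide pools being higher. The log2 fold change was 1.42 ± 0.33 (SE; edgeR adjusted p = 0.982), and its UMIs came from 60 cells, at most 43 from 1 cell. In the Pi16/Ebf2-low cells alone the log2 fold change was 1.87 ± 0.47, with 1 cell in saline pool 1 (edgeR adjusted p = 0.999).

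Log2 fold changes of Tsc22d3 were set beside those in 4 neighbouring populations, which come from the same 6 pools. The log2 fold change was 0.80 ± 0.18 (SE) in the Edn3-high cells, 0.59 ± 0.18 in the Wnt6/Wnt10a/Edn3 cells and 1.03 ± 0.26 in the Pi16/Ebf2 fibroblasts, none past the threshold, and 0.04 ± 0.22 in other fibroblasts. The difference between the change in the gated cells and that in other fibroblasts was 1.35 on the log2 scale (edgeR interaction with pool as a term, adjusted p = 0.955). Fkbp5, a co-chaperone of the glucocorticoid receptor, had 363, 234 and 145 CPM in the tropicamide pools, against 201, 44.8 and 159 CPM in the saline pools, with overlap. Its log2 fold change was 0.90 ± 0.55 in the gated cells, and 1.01 ± 0.22, 1.10 ± 0.19, 0.91 ± 0.17 and 1.04 ± 0.23 in Edn3-high cells, Wnt6/Wnt10a/Edn3 cells, Pi16/Ebf2 fibroblasts and other fibroblasts. Of the 20 tested genes on a list of glucocorticoid targets, 13 had a log2 fold change above 0 and 7 below, with a median of 0.20 against a median of -0.02 for all genes tested; 0 were called.

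Id2, an inhibitor of helix-loop-helix transcription factors, had 224, 291 and 232 CPM in the tropicamide pools, against 123, 123 and 116 CPM in the saline pools, with no overlap (log2 fold change 1.02 ± 0.28, SE; edgeR adjusted p = 0.982). Ecrg4, which encodes a secreted peptide precursor, had 2208, 675 and 280 CPM in the tropicamide pools, against 17.5, 196 and 159 CPM in the saline pools. Its log2 fold change was 3.01 ± 0.88 (SE), but 178 of the 365 UMIs in tropicamide pool 1 came from 1 cell and 28 of the 29 in tropicamide pool 3 came from 1 cell. Rnf10, a ubiquitin ligase counted in 55 cells, had 157, 137 and 193 CPM in the tropicamide pools, against 52.5, 67.2 and 79.5 CPM in the saline pools. The heat-shock cochaperone Dnajb4, the sialyltransferase St3gal4, the cytochrome b5 reductase Cyb5r3 and the interferon-induced Ifit3 were likewise separate and higher in the tropicamide pools, with log2 fold changes of 1.02, 1.33, 1.22 and 1.36.

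Ttr, which encodes the thyroxine and retinol carrier transthyretin and is abundant in retinal pigment epithelium, had 78.6, 132 and 77.3 CPM in the tropicamide pools, against 0, 5.60 and 43.4 CPM in the saline pools. The log2 fold change was 2.52 ± 0.78 (SE; edgeR adjusted p = 0.982), and no cell held more than 5 Ttr UMIs. The summed level of 5 retinal pigment epithelium markers, of which Ttr is 1, was 86.9 to 159 CPM in the tropicamide pools, against 11.2 to 50.6 CPM in the saline pools; 4 of the 5 were detected and Lrat was at 0. Over all filtered barcodes the same sum was 1770 to 3731 CPM in the tropicamide pools, against 574 to 1011 CPM in the saline pools. In the Edn3-high cells Ttr was called (log2 fold change 3.68 ± 0.46, SE; edgeR adjusted p = 0.0322), and so was Ptgds, a prostaglandin D synthase made by pigment epithelium and meninges. These 2 were the calls among 8718 genes there, which is 0.0229%; 685 genes, or 7.86%, had an unadjusted p under 0.05. The log2 fold change of Ttr was 3.56 ± 0.54 (SE) in Wnt6/Wnt10a/Edn3 cells, 1.21 ± 0.47 in Pi16/Ebf2 fibroblasts and 1.96 ± 0.55 in other fibroblasts, none past the threshold. Rods, which were shallower, held a Ttr UMI in 21.6% of cells, and 32 of the 78 gated cells held one. The part of pigment epithelial RNA in the Ttr level of the gated cells was not tested.

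Ifi205 had the smallest p of all the named genes and was lower in every tropicamide pool; it is a member of the interferon-induced PYHIN family. It had 42.3, 92.6 and 67.6 CPM in the tropicamide pools, against 350.05, 247 and 210 CPM in the saline pools, with no overlap (log2 fold change -1.98 ± 0.39, SE; edgeR adjusted p = 0.982). Its UMIs came from 18 cells. Ifi205 had 251 CPM in the Pi16/Ebf2-positive cells and 0 CPM in the low cells, and 318 CPM in Pi16/Ebf2 fibroblasts, where the log2 fold change was -0.49 ± 0.27. Adgrd1, an adhesion G protein-coupled receptor, had 60.5, 185 and 126 CPM in the tropicamide pools, against 621, 224 and 369 CPM in the saline pools. It too was a gene of the Pi16/Ebf2-positive cells, with 375 CPM there and 17.8 CPM in the low cells, and its highest level was in saline pool 1, the pool in which 8 of 9 cells were Pi16/Ebf2-positive. Saline pool 2, where 3 of 14 cells were positive, nonetheless lay above all tropicamide pools for both genes, on 2 cells with Ifi205 and 6 with Adgrd1. The part of the mixture in these differences was not tested.

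Esr1, the oestrogen receptor alpha gene, had 6.05, 30.9 and 38.6 CPM in the tropicamide pools, against 123, 106 and 94.0 CPM in the saline pools (log2 fold change -2.13 ± 0.53, SE; edgeR adjusted p = 0.982). The counts were small, with 1, 7 and 4 UMIs in the tropicamide pools, against 14, 19 and 13 in the saline pools. The log2 fold change of Esr1 was -0.86 ± 0.19 in Pi16/Ebf2 fibroblasts and -0.08 ± 0.31 in Edn3-high cells. Zhx2, a transcriptional repressor, had 84.7, 57.3 and 57.9 CPM in the tropicamide pools, against 166, 213 and 145 CPM in the saline pools. The nuclear import receptor Kpna1, the methyltransferase Smyd3, the kinases Mast4 and Rps6ka5, the SNARE protein Vti1a and the BBSome subunit Bbs9 were also separate and lower, with log2 fold changes between -1.59 and -1.09. Vti1a and Bbs9 had the opposite sign, 0.06 and 0.30, in the 639 cells without the limit on Wnt6, Wnt10a and Edn3.

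**Figure D4:**
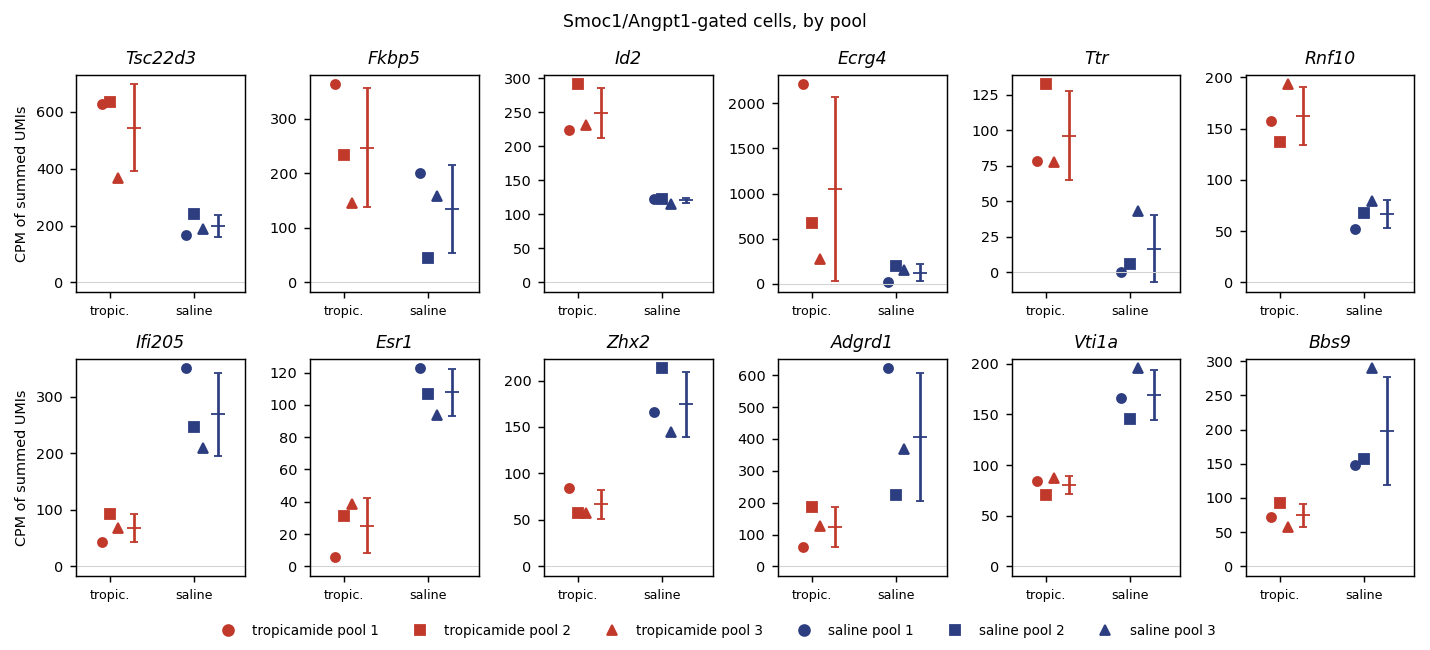
CPM of 12 genes in the gated cells (y axis, one panel per gene), 1 point per pool, tropicamide left of saline, with mean and SD of 3 pools beside the points. All but Fkbp5 were chosen among the genes of smallest p. For these 11 the groups do not overlap, against 311 of all 3116 genes tested, or 9.98%. None passed the adjusted threshold.

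Other genes fixed for the comparison overlapped between the groups. The chemokine Cxcl10 had 278, 362 and 773 CPM in the tropicamide pools, against 551, 364 and 347 CPM in the saline pools. The transcription factor Sox9, the endoplasmic reticulum mannosyltransferase Tmtc2 and the clock gene Per1 had log2 fold changes of -0.49 ± 0.48, -1.11 ± 0.86 and 0.20 ± 0.43 (SE). Serpine2, a marker of the label that the gate did not use, also overlapped, with a log2 fold change of 0.39 ± 0.40 (SE).

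**Figure D5:**
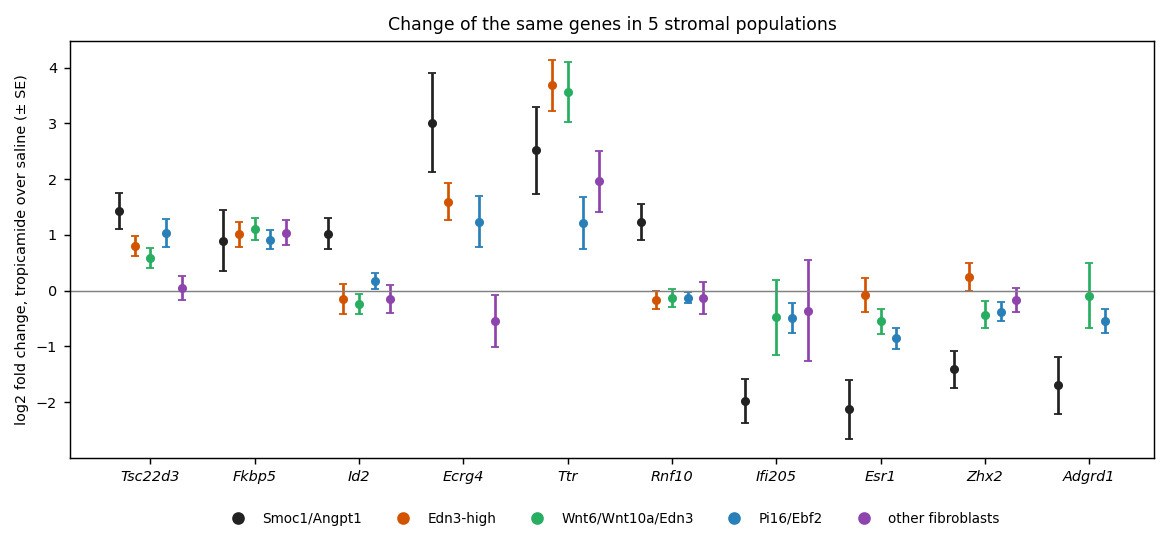
Log2 fold change of tropicamide over saline with its standard error (y axis) for 10 genes in the gated cells and 4 other stromal populations from the same pools; a population in which a gene was not tested has no point. Fkbp5 lay between 0.90 and 1.10 in all 5, while Id2 and Rnf10 were above 0 by more than 1 in the gated cells alone, a difference not past the threshold in the interaction tests.

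The change in the gated cells was compared directly with that in each neighbouring population, with pool as a term. No gene was called by the edgeR interaction test, with 0 of 6388 genes against Edn3-high cells, 0 of 7132 against Wnt6/Wnt10a/Edn3 cells, 0 of 11083 against Pi16/Ebf2 fibroblasts and 0 of 5815 against other fibroblasts, each 0%. An unadjusted p under 0.05 was given to 233, 272, 416 and 287 genes, or 3.65%, 3.81%, 3.75% and 4.94%. Trpm3, a cation channel, had the smallest unadjusted p against Edn3-high cells, with a log2 fold change of 0.32 in the gated cells and 3.36 in the Edn3-high cells (edgeR adjusted p of the difference 0.235). Cyp1b1 had 1.38 in the gated cells and -0.79 in Pi16/Ebf2 fibroblasts (edgeR adjusted p = 0.328). Within other fibroblasts edgeR called 5 of 7946 genes, which is 0.0629%, with 649 (8.17%) at an unadjusted p under 0.05. Within Wnt6/Wnt10a/Edn3 cells and Pi16/Ebf2 fibroblasts it called 0 of 8551 and 0 of 12392, with 546 (6.39%) and 1236 (9.97%) at an unadjusted p under 0.05 and with 8 and 104 calls by DESeq2.

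The gene groups were described by counts, and no member of the 34 lists was called in the gated cells. Among collagens, 6 of 19 tested genes were above 0 and 13 below, with a median log2 fold change of -0.16; Col1a2 had -0.30, Col3a1 -0.55 and Col1a1 -0.34. Proteoglycans divided into 9 above and 10 below, with Lum at -0.05. Matricellular genes had 12 above and 15 below, with Sparc at -0.09 and Mgp at -0.34. Proteases and their inhibitors had 7 above and 16 below, with a median of -0.18, Timp2 at -0.17 and Timp3 at 0.61. Collagen messages summed to 18673, 21148 and 23775 CPM in the tropicamide pools, against 34934, 19530 and 24601 CPM in the saline pools, with the highest level in saline pool 1.

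Vessel factors were even, with 7 above and 7 below and a median of 0.01. TGF-beta and BMP genes had 10 above and 7 below, with a median of 0.27. Id3 and Id1, which BMP signalling induces, had 0.82 and 1.75; Id1 was at 290.4, 449.9 and 319 CPM in the tropicamide pools, against 0, 213 and 79.5 CPM in the saline pools and was chosen after its values were seen. Summed over pools, Id1 had 105 CPM in the Pi16/Ebf2-positive cells and 505 CPM in the low cells, Id2 154 and 261 CPM, and Id3 666 and 1972 CPM. Wnt genes had 6 above and 3 below, IGF genes 5 and 6, retinoic acid genes 3 and 2, and periocular transcription factors 8 and 8.

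Tested genes of the NF-kB and JAK-STAT, cytokine and complement lists lay more often below 0 than above, and those of the interferon list did not. On the NF-kB and JAK-STAT list, 3 of 14 were above and 11 below, with a median of -0.40; Nfkb1 had -1.23 and the oncostatin M receptor gene Osmr -1.17, while Socs3 had 0.05 and Nfkbia 0.32. Chemokines and cytokines had 3 above and 7 below, with a median of -0.32. The cytokine Il6 was at 12.1, 83.8 and 67.6 CPM in the tropicamide pools, against 814, 89.7 and 130.2 CPM in the saline pools, with 81 of the 93 UMIs in saline pool 1 in 1 cell; it was chosen after its values were seen. Complement genes had 3 above and 6 below, and interferon-induced genes 7 above and 7 below. Of 14 tested genes on a list of growth factor and hormone receptors, 3 were above and 11 below, with a median of -0.26, and of 13 channels and transporters 3 were above and 10 below, with a median of -0.58. Kcnt2 was highest in saline pool 1, at 954 CPM.

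Of 52 ribosomal protein genes, 44 were above 0 and 8 below, with a median of 0.13 and a highest value of 0.36, and 14 were separate and higher in the tropicamide pools, against 5.97% of all genes tested. Their summed level was 76628, 79666 and 86913 CPM in the tropicamide pools, against 73089, 77492 and 67902 CPM in the saline pools. In the 639 cells without the limit on Wnt6, Wnt10a and Edn3, 8 of the 52 were above 0 and 44 below, with a median of -0.04. In the gated cells, mitochondrially encoded genes had 2 above and 9 below and nuclear respiratory genes 14 and 5. Heat-shock genes had 11 and 2 with Hspa8 at 0.30, and endoplasmic reticulum chaperones 10 and 4 with Hspa5 at 0.56. In the same order, the 639 cells had 11 above and 2 below, 15 and 9, 10 and 6, and 14 and 6. Early response genes of the gated cells had 16 above and 12 below, with Fos at 0.49 and Jun at 0.05, against 11 and 23 in the 639 cells. Again in the gated cells, clock genes had 6 and 4, hypoxia and glycolysis genes 6 and 5, and contractile genes 8 and 4. Mouse orthologues of refractive error genes had 5 above and 12 below, with Myoc at 1.31 and the insulin-like growth factor Igf1 at 0.85. The remaining lists had 13 or fewer tested genes each, with medians from -0.34 for adenosine and cyclic AMP genes to 0.21 for amino acid stress genes.

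Markers of other cell types were summed in the gated cells. Pericyte and smooth muscle markers gave 366 to 531 CPM in the tropicamide pools, against 254 to 689 CPM in the saline pools, with all 10 detected. Macrophage markers gave 13.2 to 96.8 and 8.75 to 57.9 CPM, with Ptprc at 0, and Schwann markers 0 to 42.3 and 5.60 to 35.0 CPM, with Sox10 at 0. Melanocyte markers gave 0 to 17.6 and 0 to 5.60 CPM, with Tyr, Tyrp1 and Dct at 0. Cartilage and tendon markers gave 193 to 732 CPM in the tropicamide pools, against 0 to 101 CPM in the saline pools, the groups not overlapping, with 3 of 5 detected and Acan and Col2a1 at 0. Tnmd, a membrane protein of tendon cells, came from 8 cells, with 46 of the 70 UMIs of tropicamide pool 1 in 1 cell, and the matrix protein Comp came from 10 cells, with 49 of 51 in 1 cell of that pool. Leaving out the cells with 3 or more UMIs of endothelial, epithelial, pigment, Schwann or immune markers removed 38 of the 78 cells, and 0 genes were called among the rest.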

How the data were processed

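Single-cell RNA was measured in 6 pools, and the authors deposited 1 matrix of UMI counts per gene and barcode for each pool. Per the submitters' processing notes, reads were processed with Cell Ranger 8.0.1 and STAR on GRCm39; how intronic reads were handled, how cells were called and which annotation release was used is not stated in the labels or headers. The labels' extraction protocol describes another tissue and was not used. Deposited counts were filtered and gated as stated above, and no barcode was removed as a doublet in the main analysis.

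Counts of each population were summed per pool and tested with edgeR 4.0.16 (R 4.3.3): filterByExpr, TMM scaling, the quasi-likelihood test and Benjamini-Hochberg adjustment over all genes tested, with a threshold of 0.05. The change in 2 populations was compared in 1 fit with an interaction term and with pool as a term. DESeq2 1.42.0 was an alternative. Shares were tested with a two-sided exact permutation test on the logit. The tests were checked on simulated counts. The pools are separate samples in the labels, and p-values measure the spread between these pools, which may be technical in part. Same-numbered pools did not deviate together (correlations of -0.25, 0.08 and -0.06), so they were not paired.

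The gate, the gene lists and the comparison populations were chosen with earlier results of these data known. Genes named for the treatment were the 20 of smallest p among those averaging at least 50 CPM, because none passed the threshold, together with a few fixed genes. For levels they were the 24 highest and 10 lowest against other fibroblasts, for variation the 12 highest, and for lists up to 4 members of highest mean CPM. Genes named outside these rules, among them Foxc1, Nr2f2, Vegfa, Chil1, Osmr, Kcnt2, Igf1, Hspa5 and the genes that divide the gated cells, were chosen after their values were seen. Alternatives tried were DESeq2, no filter on low counts, the replicate block, each pool left out, stricter gates, doublet calls left out and cells with other markers left out. Some genes that these rules pick are not reported here.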

Additional observations from a re-analysis of the deposited data

How the results depend on the processing

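In the gated cells, 0 genes were called under each alternative except that without a filter on low counts, which called 42; then Ifi205, Tsc22d3, Ecrg4, Adgrd1 and Ttr passed with log2 fold changes of -1.92, 1.48, 3.07, -1.64 and 2.58. With the replicate block 0 genes were called in the gated cells, 48 in Edn3-high cells and 10 in other fibroblasts. In Edn3-high cells, Wnt6/Wnt10a/Edn3 cells, Pi16/Ebf2 fibroblasts and other fibroblasts, DESeq2 called 41, 8, 104 and 25 genes, edgeR without the filter called 355, 274, 3 and 395, and leaving out 1 pool gave 0 to 24, 0 to 1, 0 to 4 and 1 to 12. The interaction tests called 7, 32, 20 and 24 genes without the filter, and leaving out 1 pool gave 0 to 0, 0 to 1, 0 to 40 and 0 to 1, the 40 being without saline pool 2. The tropicamide to saline ratio of the share of gated cells was 0.967 and passed above 1 in several settings: it was 0.760 to 1.22 with 1 pool left out (1.22 without tropicamide pool 3 and 1.03 without saline pool 2), 1.02 with at most 10% mitochondrial UMIs, 1.13 without doublet calls, 2.05 without the limit on Wnt6, Wnt10a and Edn3, and 1.16 in cells with at most 1 UMI of Pi16 and Ebf2. These ratios are of group means of the share, while the test used the logit. The tropicamide minus saline difference of mean logits stayed below 0 without saline pool 2 (-0.060) and with at most 10% mitochondrial UMIs (-0.068). Without the limit on Wnt6, Wnt10a and Edn3, Vti1a had a log2 fold change of 0.065, Bbs9 0.30, Ifit3 -0.26 and Cxcl10 -0.43, each opposite in sign to the gated cells. With 1 pool left out, Cxcl10 ran from -0.42 (without tropicamide pool 3) to 0.39, Sox9 from -0.80 to 0.16, Tmtc2 from -2.31 to 0.031 and Per1 from -0.032 to 0.18, the last 3 changing sign without saline pool 3. Cxcl10 was also negative with both genes detected and a sum of 5 or more (-0.33), without cells holding other markers (-0.97) and in cells with at most 1 UMI of Pi16 and Ebf2 (-2.60). The cause was not tested for any of these. The other 326 gene values kept their direction and side of the threshold. The gate without its limit, the cells low in Pi16 and Ebf2 and the Edn3-high cells were chosen after seeing the data. A share among barcodes with fewer than 3 rod marker UMIs could not be compared, since 5 pools had no gated cell there. The median gated cell held 11 rod marker UMIs. With 103552 to 226733 UMIs per pool, genes of low count were not testable in the gated cells.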
